A study of Mus musculus with 7 samples.

Results

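The 10 genes described here encode inducible defence products of the gut lining and signals that it releases: the hydrogen peroxide-producing oxidase Duox2 and its maturation factor Duoxa2, the nitric oxide synthase Nos2, the siderophore-binding protein Lcn2, the serum amyloid A proteins Saa1, Saa2 and Saa3, the cytokine Il18 and the chemokines Ccl25 and Ccl28. They were taken by gene name from the 38293 genes of the count table. All 10 had enough counts to be tested, among 14869 genes of the table that did. RNA was sequenced from scrapings of the ileum, the last part of the small intestine, of 8-week-old male C57BL/6NRJ mice. Every mouse was kept for 1 week on a high fat, low calcium AIN93G diet with 40% of its energy as fat. The normal cys group (4 libraries) stayed for a further 2 weeks on this diet, which holds 0.38% cystine, and the low cys group (3 libraries) received the same diet with 0.08% cystine, in which alanine replaced the added cystine. Cystine is the oxidized, disulfide-linked form of the amino acid cysteine. Scrapings hold the epithelium with the lamina propria beneath it but no muscle layer, so that a level cannot be assigned to epithelial cells alone. In such tissue, fewer cells of a type and less RNA per cell cannot be told apart. Each library is 1 mouse, and the labels name no batch. The libraries held 14888760 to 22412703 counts each, and the markers of ileal enterocytes were present in all, with 2848 to 7454 CPM (counts scaled to library size) of the bile acid-binding protein Fabp6 and 184 to 388 CPM of the bile acid transporter Slc10a2.

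DUOX2 sits in the apical membrane of enterocytes and releases hydrogen peroxide towards the lumen, where it limits contact between bacteria and the epithelium. It leaves the endoplasmic reticulum only together with its partner DUOXA2. NOS2, which makes nitric oxide from arginine, and DUOX2 are both induced by bacterial colonization and cytokines. Serum amyloid A proteins carry retinol and lipids and are made in the ileal epithelium when bacteria adhere to it, in part through IL-22 and STAT3. LCN2 binds bacterial siderophores and so withholds iron, IL-18 is a cytokine that epithelial cells store as a precursor and caspase-1 releases, CCL25 attracts T cells that carry the receptor CCR9 to the small intestine, and CCL28 attracts IgA plasma cells that carry CCR10.

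The comparison asked whether dietary cystine restriction changed the transcript levels of these genes in the ileum. No gene of the 10 differed between the diets beyond the spread between mice. In edgeR's quasi-likelihood test, 0 of the 10 had an adjusted p under 0.05, against 0% of all genes tested, and 0 had an unadjusted p under 0.05, against 5.49% of all genes. DESeq2 and limma-voom also gave 0 of the 10 at either threshold. In 0 of the 10 were all low cys libraries above or below all normal cys libraries, against 6.83% of all genes. The estimated change was higher on low cys for 5 genes (Lcn2, Saa1, Saa2, Saa3 and Ccl28) and lower for 5 (Duox2, Duoxa2, Nos2, Il18 and Ccl25), with a median log2 fold change of 0.18 beside 0.01 for all genes. Unadjusted p-values ran from 0.0949 for Duoxa2 to 0.777 for Il18, and adjusted p-values from 0.794 to 0.943. In the two-sided exact permutation test, which 4 against 3 libraries limit to p = 0.0286 or more, p ran from 0.171 for Ccl28 to 0.83 for Nos2 and Il18.

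**Figure D1:**
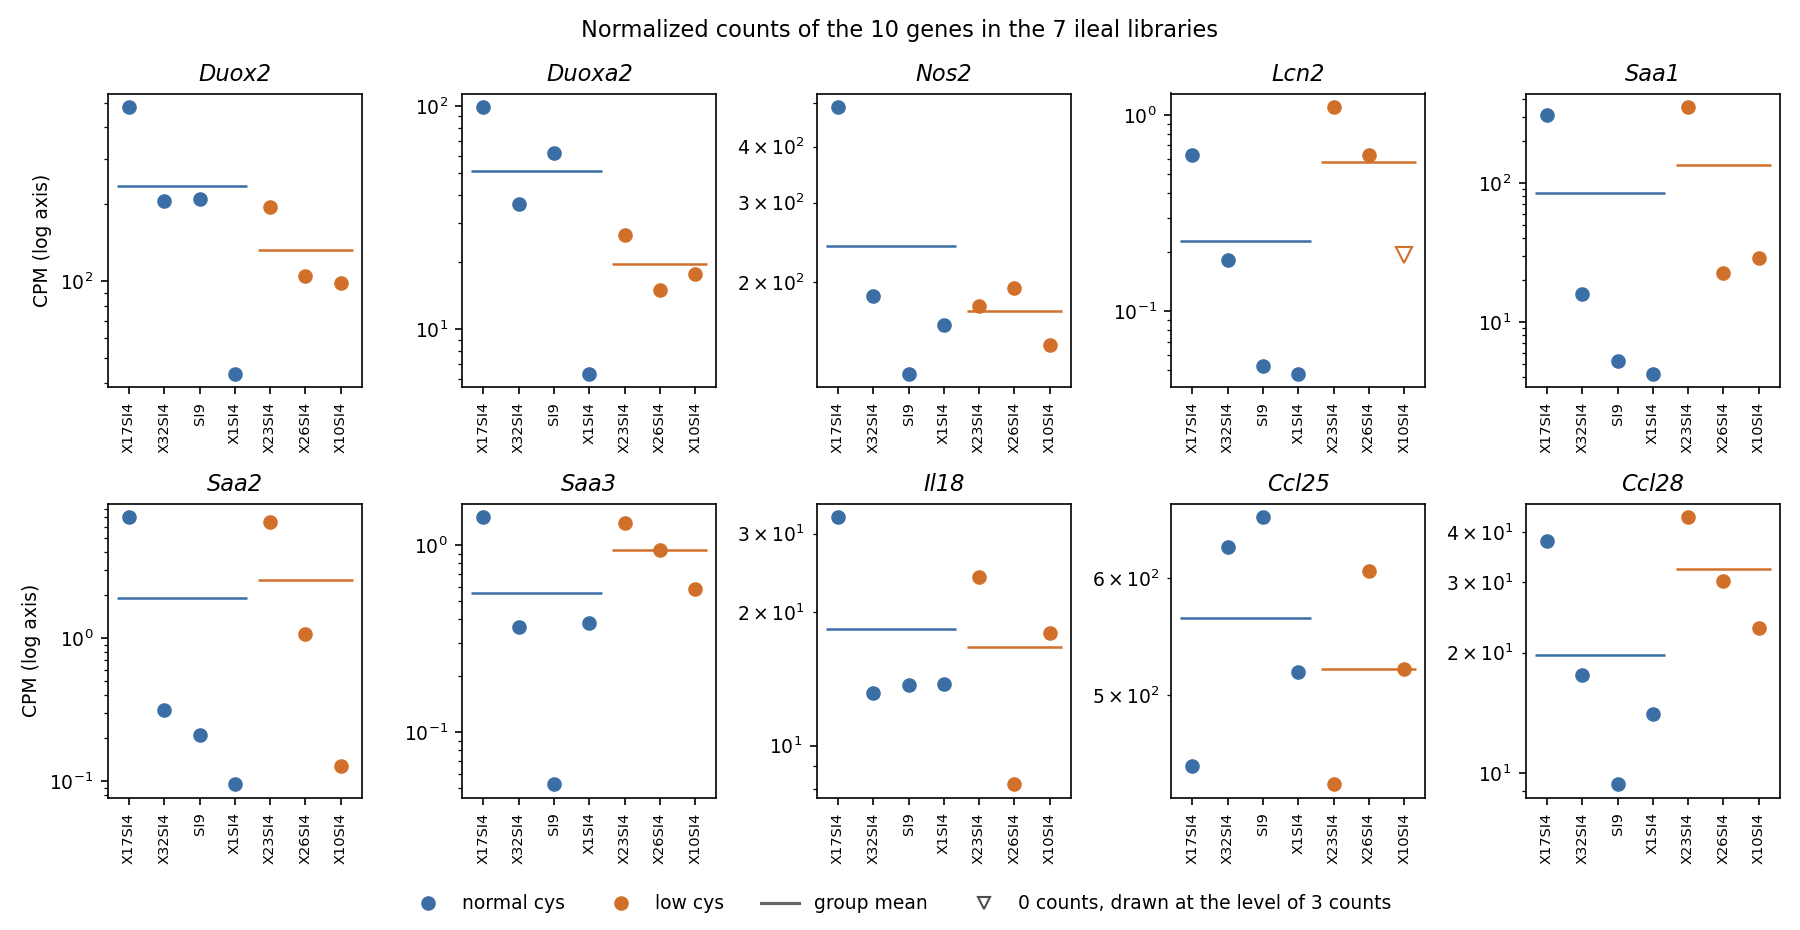
Counts scaled to library size (CPM, log axis with its own range in each panel) of each gene in the 4 normal cys libraries (blue) and the 3 low cys libraries (orange), with a line at each group's mean CPM. In every panel the groups overlap, and the normal cys library X17SI4 holds the highest value for 6 of the 10 genes.

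As the plot of CPM by library shows, most of the variation lay between mice on the same diet. CPM here are scaled to library size with TMM factors. The normal cys library X17SI4 was the highest of all 7 for Duox2, Duoxa2, Nos2, Saa2, Saa3 and Il18, and the low cys library X23SI4 was the highest for Lcn2, Saa1 and Ccl28. For 6 of the 10 genes these libraries were the top 2 of the 7, which held for 8.43% of all genes tested, and this pair was picked after the values had been seen. The normal cys library X1SI4 was the lowest for 4 genes. Per kilobase of exon, on which genes can be compared, Ccl25 had the highest mean level in normal cys mice with 211 ± 36.7 CPM per kb (SD, n = 4), ahead of Saa1 with 139 ± 250 and Nos2 with 57.3 ± 40.2. Duox2 (36.8 ± 28.3 CPM per kb), Duoxa2 (32 ± 24.8) and Il18 (25.6 ± 13.4) followed and did not differ from each other beyond their spread. Ccl28 (5.29 ± 3.39 CPM per kb), Saa2 (3.13 ± 5.57), Saa3 (1.04 ± 1.12) and Lcn2 (0.0987 ± 0.119) were the lowest, and each lay within the spread of its neighbour. In low cys mice Saa1 stood first at 223 ± 312 CPM per kb (SD, n = 3) and Ccl25 next at 195 ± 32, a swap within the spread of Saa1.

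Duox2 (ENSMUSG00000068452, GRCm38 chr2:122279247-122298165, minus strand) and Duoxa2 (ENSMUSG00000027225, chr2:122298900-122302885, plus strand) lie head to head, with 735 bases between their 5′ exon ends. The 300 bases around each RefSeq start (250 before and 50 after, build GRCm38.p6) are shown because these genes varied together, with the letters TATAAA in capitals. The windows are chr2:122298178-122298477 on the minus strand for Duox2 and chr2:122298650-122298949 on the plus strand for Duoxa2.
Duox2: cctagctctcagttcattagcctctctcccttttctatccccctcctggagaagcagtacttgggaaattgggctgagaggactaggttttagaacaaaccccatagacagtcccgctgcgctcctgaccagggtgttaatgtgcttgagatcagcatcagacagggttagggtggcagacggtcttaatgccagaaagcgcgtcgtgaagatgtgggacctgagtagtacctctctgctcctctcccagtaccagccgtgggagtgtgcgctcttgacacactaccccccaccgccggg
Duoxa2: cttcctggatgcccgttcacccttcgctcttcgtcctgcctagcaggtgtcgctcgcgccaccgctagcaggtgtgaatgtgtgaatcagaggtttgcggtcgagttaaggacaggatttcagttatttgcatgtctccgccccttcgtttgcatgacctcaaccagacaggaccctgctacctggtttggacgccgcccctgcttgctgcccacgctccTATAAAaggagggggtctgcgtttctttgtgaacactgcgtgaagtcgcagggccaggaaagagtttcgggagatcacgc
TATAAA, searched on both strands, occurred once in the Duoxa2 window, at -30 to -25 from the start, and not in the Duox2 window. It occurred in 13.6% of the 32851 RefSeq promoter windows of this length. The STAT motif TTCNNNGAA (8.3% of windows) and the NF-kB motif (4.51%) occurred in 0 of the 9 windows that matched one of the 10 genes (Nos2 had none). This says only that these letters are not there. The Il18 window lies around a RefSeq start 20573 bases from the start of the exons counted for Il18. Ccl25 has 2 RefSeq promoters, and only the one nearest to the start of its counted exons was searched.

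Duox2 reached 481 CPM in X17SI4, 206 in X32SI4, 210 in SI9 and 43.4 in X1SI4 on normal cys, and 196 in X23SI4, 105 in X26SI4 and 98.7 in X10SI4 on low cys. The 3 low cys values fell inside the normal cys range, which spanned 11.1-fold, while the low cys values spanned 1.98-fold. The means were 235 ± 181 CPM (SD, n = 4) and 133 ± 54.3 CPM (SD, n = 3), with a log2 fold change of -0.82 (SE 0.65, edgeR adjusted p = 0.804). Duoxa2 followed the same order of libraries nearly throughout, with 99.4 CPM in X17SI4, 36.3 in X32SI4, 62.0 in SI9 and 6.31 in X1SI4 on normal cys. On low cys it measured 26.4 CPM in X23SI4, 15 in X26SI4 and 17.7 in X10SI4. All 3 low cys values lay below 3 of the 4 normal cys values and above that of X1SI4. The log2 fold change of Duoxa2 was -1.37 (SE 0.73, edgeR adjusted p = 0.794, exact permutation p = 0.486). X1SI4 alone set the overlap: without it the log2 fold change was -1.17 (SE 0.42) for Duox2 and -1.74 (SE 0.39) for Duoxa2. Both then had an unadjusted p under 0.05 in edgeR, and an adjusted p of 0.811. X17SI4 pulled the other way: without it the estimates shrank to -0.20 (SE 0.54, edgeR adjusted p = 0.9) for Duox2 and -0.82 (SE 0.65, edgeR adjusted p = 0.623) for Duoxa2. X1SI4 also had the lowest sum of the 5 Paneth cell markers, 684 CPM against 2247 to 4972 CPM in the other libraries, and of the 10 macrophage and dendritic markers, 21.9 against 51.7 to 78.4 CPM. It had the highest sum of the 4 ileal enterocyte markers, 39450 CPM against 10060 to 35630. The part of these differences in the Duox2 and Duoxa2 values was not tested.

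**Figure D2:**
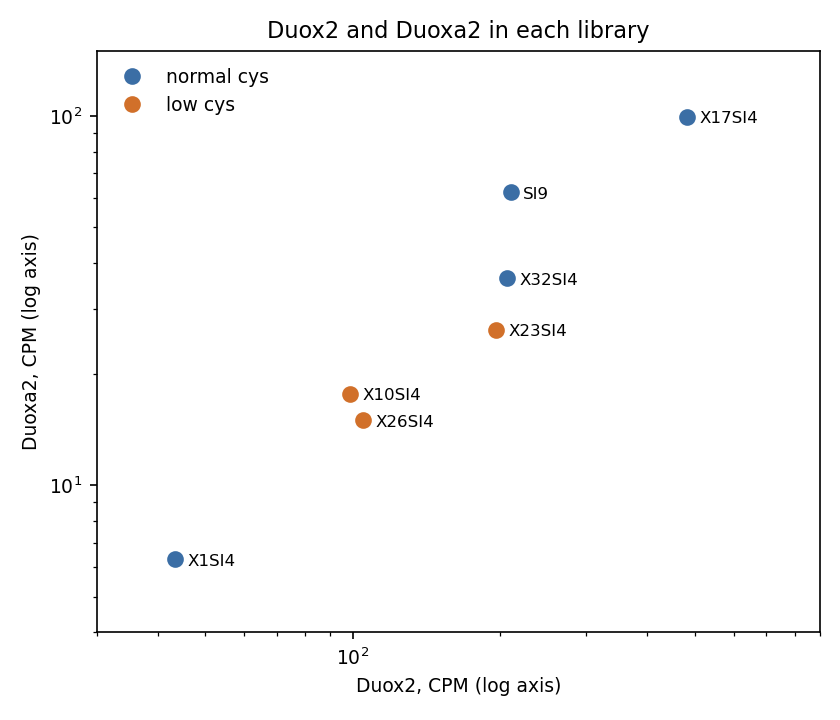
Duoxa2 against Duox2, both in CPM on log axes, 1 point per library, with normal cys in blue and low cys in orange. The points rise together from X1SI4 (43.4 and 6.31 CPM) to X17SI4 (481 and 99.4 CPM), and the low cys points lie between normal cys points.

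Across the 7 libraries, log2 CPM of Duox2 and Duoxa2 rose together, as the scatter of both genes shows (Pearson r = 0.966, exact permutation p = 0.00119, adjusted over 28 pairs of genes 0.0167). Spearman's rho was 0.964 (exact permutation p = 0.00278, adjusted 0.063). Without the libraries farthest from the median, X1SI4 and X17SI4, r was 0.863, and with each diet's mean subtracted it was 0.971. The ratio of Duoxa2 to Duox2 in CPM per kb ran from 0.542 to 1.19. Duoxa2 ranked 2nd of 13323 genes by r with Duox2. The others of the top 5 were Dad1 (r = 0.986, 57.3 to 89.0 CPM), Txn1 (r = 0.961, 504 to 608 CPM), Gm12013 (r = 0.960, 3.73 to 8.73 CPM) and Gpx2, a glutathione peroxidase of the gut epithelium (r = 0.953, 148 to 870 CPM). High values of r are bound to occur among this many genes with 7 libraries, and these 5 are given as a description. A further limit is sequence: 6.79% of the 50-base stretches of Duox2 transcripts also occur in Duox1, and 42.8% of the exon bases of Duoxa2 overlap Duoxa1 on the opposite strand. Whether counting used strand is not given in the sources used here, and Duoxa1 itself had at most 0.209 CPM.

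The rest of the oxidase family showed no difference. Of its 16 listed genes 11 were tested, with 0 higher and 0 lower at unadjusted p under 0.05 in edgeR and a median log2 fold change of 0.00. Duox1, the second dual oxidase, had 2.21 ± 1.45 CPM (SD, n = 4) on normal cys and 1.67 ± 0.492 CPM (SD, n = 3) on low cys. Duox1 was lowest in X1SI4 as well, at 0.334 CPM. Nox1, the superoxide-producing oxidase of the colon, had 0.411 ± 0.229 and 0.478 ± 0.192 CPM.

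Nos2 (ENSMUSG00000020826, chr11:78920787-78960254, plus strand) stood apart in a single mouse. It measured 490.5 CPM in X17SI4 against 186 in X32SI4, 125 in SI9 and 161 in X1SI4 on normal cys. On low cys it measured 177 CPM in X23SI4, 194 in X26SI4 and 144 in X10SI4. Apart from X17SI4, the 6 libraries of both diets shared 1 narrow range, with X26SI4 highest. The log2 fold change was -0.48 (SE 0.44, edgeR adjusted p = 0.813) and turned to 0.13 without X17SI4. Among the 15 genes listed for nitric oxide and arginine, 10 were tested, 0 were higher and 1 was lower at unadjusted p under 0.05 in edgeR. That gene was Gch1, which makes the cofactor tetrahydrobiopterin that nitric oxide synthases need, with 25.5 ± 5.81 CPM (SD, n = 4) on normal cys and 18.5 ± 1.21 CPM (SD, n = 3) on low cys. Its groups overlapped (log2 fold change -0.46, SE 0.19, edgeR adjusted p = 0.794, exact permutation p = 0.143).

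Saa1 (ENSMUSG00000074115, chr7:46740501-46742980, minus strand), Saa2 (ENSMUSG00000057465, chr7:46751833-46754314, plus strand) and Saa3 (ENSMUSG00000040026, chr7:46711998-46715676, minus strand) lie within 42317 bases. Saa1 and Saa2 face away from each other with 8853 bases between their 5′ ends. Their longest open reading frames, 369 bases each, were 95.1% identical, and that of Saa3 was 77.1% identical to that of Saa1. The RefSeq promoter windows of Saa1 (chr7:46742931-46743230, minus strand) and Saa2 (chr7:46751583-46751882, plus strand), build GRCm38.p6, are shown because near-identical sequences went with very different levels. Capitals mark the positions that differ in their alignment, which is 95.3% identical over 301 columns.
Saa1: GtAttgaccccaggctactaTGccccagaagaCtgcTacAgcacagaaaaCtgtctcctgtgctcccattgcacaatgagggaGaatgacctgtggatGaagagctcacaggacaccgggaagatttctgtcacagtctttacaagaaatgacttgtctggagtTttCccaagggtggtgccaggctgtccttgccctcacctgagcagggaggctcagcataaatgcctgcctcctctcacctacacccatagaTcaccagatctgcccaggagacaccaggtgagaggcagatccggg
Saa2: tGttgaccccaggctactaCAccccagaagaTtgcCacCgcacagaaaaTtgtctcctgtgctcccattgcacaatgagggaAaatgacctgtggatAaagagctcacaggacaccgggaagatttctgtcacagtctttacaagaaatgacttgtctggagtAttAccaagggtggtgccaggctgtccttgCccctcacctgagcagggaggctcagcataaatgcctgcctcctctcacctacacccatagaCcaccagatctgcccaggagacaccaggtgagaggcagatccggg
Against this likeness, Saa2 made up only 0.444% to 4.52% of the counts of both genes in the 7 libraries. In X17SI4 the share was 2.21% (95% Wilson interval 1.87 to 2.61%) and in X23SI4 it was 1.80% (1.54 to 2.10%). The highest share was 4.52% (2.84 to 7.12%, 17 Saa2 counts) in X26SI4 and the lowest 0.444% (0.122 to 1.60%, 2 Saa2 counts) in X10SI4. Their intervals do not meet, but these libraries were picked as the extremes of the 7, so this is no test of a difference. The intervals cover counting error only. Of the 50-base stretches of Saa1 transcripts 14.8% also occur in Saa2 or Saa3, and 11.2% of those of Saa2 occur in Saa1, so the split of reads between them is uncertain to that extent.

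Saa1 spanned 83.9-fold over all libraries, the widest range of the 9 genes with counts in every library. On normal cys it measured 310 CPM in X17SI4, 15.8 in X32SI4, 5.26 in SI9 and 4.2 in X1SI4. The low cys libraries had 353 CPM in X23SI4, 22.4 in X26SI4 and 28.9 in X10SI4. A single mouse on each diet was therefore more than 10-fold above the others of its group, and X23SI4 was the only low cys library above all normal cys libraries. The means, 83.9 ± 151 CPM (SD, n = 4) and 135 ± 189 CPM (SD, n = 3), each had an SD above the mean, and the log2 fold change was 0.69 (SE 1.55, edgeR adjusted p = 0.911). DESeq2 gave no p for Saa1 (log2 fold change 0.65). The direction rested on these mice. Without X23SI4 the log2 fold change was -1.70, and without X17SI4 it was 4.00 (SE 1.13). The last estimate had an unadjusted p under 0.05 in edgeR and an adjusted p of 0.373. Without any other library it lay between 0.27 (without SI9) and 1.21 (without X26SI4).

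Saa2 repeated the pattern of Saa1 at low counts. It had 134 counts (7.0 CPM) in X17SI4, 7 in X32SI4, 4 in SI9 and 2 in X1SI4 on normal cys. On low cys it had 158 counts (6.45 CPM) in X23SI4, 17 in X26SI4 and 2 in X10SI4. The same mice were the highest of each diet, and the groups overlapped fully (log2 fold change 0.47, SE 1.44, edgeR adjusted p = 0.937; -1.65 without X23SI4 and 0.08 to 1.00 in the other fits with 1 library left out). Saa3, which in other tissues is made by adipocytes and macrophages, had 27, 8, 1 and 8 counts on normal cys and 32, 15 and 9 on low cys, in the order of libraries used for Saa2. X17SI4 and X23SI4 were again on top, at 1.41 and 1.31 CPM. All 3 low cys values exceeded the normal cys mean of 0.552 CPM, and 1 normal cys library exceeded them all. The log2 fold change of Saa3 was 0.79 (SE 0.76, edgeR adjusted p = 0.818), and 1.80 without X17SI4, with an unadjusted p under 0.05 and an adjusted p of 0.381 in edgeR. It was 0.41 (SE 0.63) without SI9 and 0.47 (SE 0.93) without X23SI4, neither with an unadjusted p under 0.05. The summed level of the 6 adipocyte markers overlapped between the diets, at 1.91 to 10.6 CPM on normal cys and 3.16 to 10.4 CPM on low cys. The 10 macrophage and dendritic markers summed to 21.9 to 76.3 CPM on normal cys and 68.4 to 78.4 CPM on low cys, with X1SI4 the lowest and X10SI4 the highest. The part of either list in the Saa3 values was not tested.

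Hepatocyte markers are given beside Saa1 because the liver is its main source in the acute phase. Alb, the defining hepatocyte transcript, had 0 to 0.122 CPM, and the 7 hepatocyte markers summed to 10.4 CPM in X17SI4 and 12.9 CPM in X23SI4, against 10.8 to 22.5 CPM in the other libraries. The part of liver RNA in the Saa1 values was not tested. Saa4, the constitutive member of the family, had 0 counts in every library. Of the 15 genes listed for SAA and the acute phase 5 were tested, with 0 higher and 0 lower at unadjusted p under 0.05 in edgeR. The antimicrobial lectins Reg3b and Reg3g, named after their values were seen, were also high in the same mice. Reg3b measured 18290 CPM in X17SI4 and 18750 in X23SI4 against 1360 to 5793 CPM in the others, and Reg3g 10650 and 9760 CPM against 818 to 2320 CPM. The diet estimate for Reg3b was a log2 fold change of 0.61 and for Reg3g of 0.38, neither with an unadjusted p under 0.05 in edgeR. Of the 23 genes listed for IL-22, IL-17 and STAT3 signalling 15 were tested, with 0 higher and 0 lower at unadjusted p under 0.05 in edgeR. Il22ra1, the epithelial IL-22 receptor chain, had 97.7 ± 22.1 CPM (SD, n = 4) on normal cys and 82.4 ± 13.9 CPM (SD, n = 3) on low cys, and Il22 had 0 counts in every library.

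Lcn2 (ENSMUSG00000026822, chr2:32384633-32387797, minus strand) was the weakest of the 10 genes. It had 12, 4, 1 and 1 counts in X17SI4, X32SI4, SI9 and X1SI4, and 27, 10 and 0 counts in X23SI4, X26SI4 and X10SI4. The low cys group held both the highest value of all, 1.10 CPM, and the 0, which at this depth allows up to 0.193 CPM (3 counts). The log2 fold change of 1.40 (SE 1.04, edgeR adjusted p = 0.798) therefore rests on few reads, and it also depended on single libraries, at 0.48 without X23SI4 and 1.93 without X10SI4. Beyond counting noise, the estimated spread of Lcn2 between mice on the same diet was larger than that of 99.7% of all genes. That share is over genes of every level and was not matched for counts. Neutrophils carry much Lcn2, and of the 11 neutrophil markers 4 (Ly6g, Mpo, Elane and Ngp) had 0 counts in every library. The 2 that were tested went in opposite directions. Csf3r had a log2 fold change of 1.05 (edgeR adjusted p = 0.794), with 18 counts in X23SI4 and 20 in X26SI4. Ltf had a log2 fold change of -0.83 (edgeR adjusted p = 0.804), with its highest level in X17SI4 at 2.56 CPM. The sum of all 11 was 0.573 to 2.93 CPM on normal cys and 1.35 to 1.75 CPM on low cys. The part of neutrophils in the Lcn2 values was not tested. Of the 20 genes listed for epithelial antimicrobial and siderophore defence 14 were tested, with 0 higher and 1 lower at unadjusted p under 0.05 in edgeR. That gene was Sprr2a1, a small proline-rich protein, with 4274 ± 607.5 CPM (SD, n = 4) on normal cys and 3097 ± 537 CPM (SD, n = 3) on low cys (log2 fold change -0.46, SE 0.20, edgeR adjusted p = 0.794, exact permutation p = 0.0857). Slc22a17, a receptor for LCN2, had 0.157 to 1.14 CPM in all libraries.

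Il18 (ENSMUSG00000039217, chr9:50575273-50581837, plus strand) measured 32.7 CPM in X17SI4, 13.1 in X32SI4, 13.7 in SI9 and 13.8 in X1SI4 on normal cys. On low cys it measured 24.0 CPM in X23SI4, 8.19 in X26SI4 and 17.9 in X10SI4. The normal cys libraries other than X17SI4 were close to each other, and the low cys values lay on both sides of them. The log2 fold change was -0.13 (SE 0.43, edgeR adjusted p = 0.943), with a direction that depended on single libraries and on the scaling: it was 0.31 without X17SI4, 0.22 without X26SI4, -0.47 without X23SI4 and 0.03 when counts were scaled to library totals. Il18bp, the secreted inhibitor of IL-18, was also highest in X17SI4, at 42.0 CPM against 5.26 to 15.6 CPM in the other libraries. Its receptor chain Il18r1 had 0.478 to 1.36 CPM, and Casp1, which processes the precursor, had 163 ± 15.5 CPM (SD, n = 4) on normal cys and 174 ± 32.6 CPM (SD, n = 3) on low cys. Of the 18 genes listed for IL-18 and the inflammasome 16 were tested. In edgeR 0 were higher and 2 were lower at unadjusted p under 0.05, against 5.49% of all genes, and 0 passed the adjustment.

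Those 2 genes were Gsdmd and Naip5. Gsdmd, the pore-forming protein through which IL-18 leaves the cell, measured 494 CPM in X17SI4, 414 in X32SI4, 468 in SI9 and 471.5 in X1SI4. The low cys libraries had 259 CPM in X23SI4, 351 in X26SI4 and 330 in X10SI4. Every low cys library was below every normal cys library, with means of 462 ± 34.1 CPM (SD, n = 4) and 313 ± 48.1 CPM (SD, n = 3). Such a full separation, in either direction, held for 6.83% of all genes tested. The log2 fold change of Gsdmd was -0.56 (SE 0.15, edgeR adjusted p = 0.794), and the exact permutation p was 0.0286, the smallest that this design can give. Naip5, an intracellular sensor of flagellin, had 743 ± 194 CPM (SD, n = 4) and 474 ± 101 CPM (SD, n = 3) with overlapping groups (log2 fold change -0.65, SE 0.24, edgeR adjusted p = 0.794, exact permutation p = 0.114). The 7 markers of epithelium summed to 14570 to 15800 CPM on normal cys and 11700 to 13910 CPM on low cys, and the part of this in the Gsdmd values was not tested.

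Ccl25 (ENSMUSG00000023235, chr8:4325210-4360020, plus strand) was the steadiest of the 10 genes. It measured 448 CPM in X17SI4, 630 in X32SI4, 659 in SI9 and 518.5 in X1SI4 on normal cys, and 436 in X23SI4, 607 in X26SI4 and 521 in X10SI4 on low cys. In contrast to the other genes, X17SI4 and X23SI4 were the lowest of the 7 libraries, and the highest value was only 1.51-fold above the lowest. The means were 564 ± 98 CPM (SD, n = 4) and 521 ± 85.4 CPM (SD, n = 3), with a log2 fold change of -0.11 (SE 0.18, edgeR adjusted p = 0.873). Without X23SI4 it was 0.01, without X26SI4 -0.21, and scaled to library totals it was 0.02. A second row named Ccl25 in the table held 1 count, in X1SI4, and was left out. Ccr9, the receptor of CCL25, had 4.65 ± 0.591 CPM (SD, n = 4) and 4.33 ± 1.02 CPM (SD, n = 3).

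Ccl28 (ENSMUSG00000074715, chr13:119623819-119654354, plus strand) measured 38.1 CPM in X17SI4, 17.6 in X32SI4, 9.36 in SI9 and 14.0 in X1SI4 on normal cys. On low cys it measured 43.7 CPM in X23SI4, 30.3 in X26SI4 and 23.1 in X10SI4. All 3 low cys values were above 3 of the 4 normal cys values, and X17SI4 exceeded 2 of the 3. The means were 19.8 ± 12.7 CPM (SD, n = 4) and 32.3 ± 10.5 CPM (SD, n = 3), with a log2 fold change of 0.71 (SE 0.44, edgeR adjusted p = 0.794, exact permutation p = 0.171). Without X17SI4 it was 1.25 (SE 0.29), with an unadjusted p under 0.05 and an adjusted p of 0.373 in edgeR. It was 0.44 (SE 0.49) without X23SI4 and 0.47 (SE 0.40) without SI9, neither with an unadjusted p under 0.05. Jchain, which joins IgA monomers in plasma cells, was higher in every low cys library, with 71.2 ± 28.5 CPM (SD, n = 4) and 169 ± 39.4 CPM (SD, n = 3). Its log2 fold change was 1.25 (SE 0.33, edgeR adjusted p = 0.794, exact permutation p = 0.0571). Full separation of the groups, in either direction, held for 6.83% of all genes tested. Ccr10, the receptor of CCL28 on plasma cells, was too low to be tested, with 0 to 0.625 CPM. Whether these levels are linked was not tested.

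Of the 21 genes listed as chemokine receptors and gut chemokines 17 were tested, and in edgeR 1 was higher and 1 lower at unadjusted p under 0.05. Cxcl12, a chemokine of stromal cells, was higher in every low cys library, with 0.644 ± 0.313 CPM (SD, n = 4) and 1.40 ± 0.369 CPM (SD, n = 3), at a log2 fold change of 1.13 (edgeR adjusted p = 0.794, exact permutation p = 0.0571). The 6 stroma markers summed to 4.11 to 8.94 CPM on normal cys and 11.8 to 18.6 CPM on low cys. Their part in the Cxcl12 values was not tested. Cxcl16, an epithelial chemokine for T cells, was lower (37.3 ± 11.3 and 20.7 ± 5.37 CPM, log2 fold change -0.85, edgeR adjusted p = 0.794, exact permutation p = 0.0857), with X17SI4 at 20.5 CPM inside the low cys range. Of the 20 NF-kB targets and cytokines 13 were tested, with 0 higher and 1 lower at unadjusted p under 0.05 in edgeR. That gene was Relb, a subunit of NF-kB, which was lower in every low cys library (142 ± 27.6 and 105 ± 5.30 CPM, log2 fold change -0.44, edgeR adjusted p = 0.794, exact permutation p = 0.0571). As for Cxcl12, the groups did not overlap, which held for 6.83% of all genes tested. Over all 8 lists together, 148 genes were listed and 101 tested, of which 1 was higher and 6 were lower at unadjusted p under 0.05. These were 6.93% of the genes tested, close to the 5.49% of all genes, and 0 passed the adjustment. Their median log2 fold change was -0.08.

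**Figure D3:**
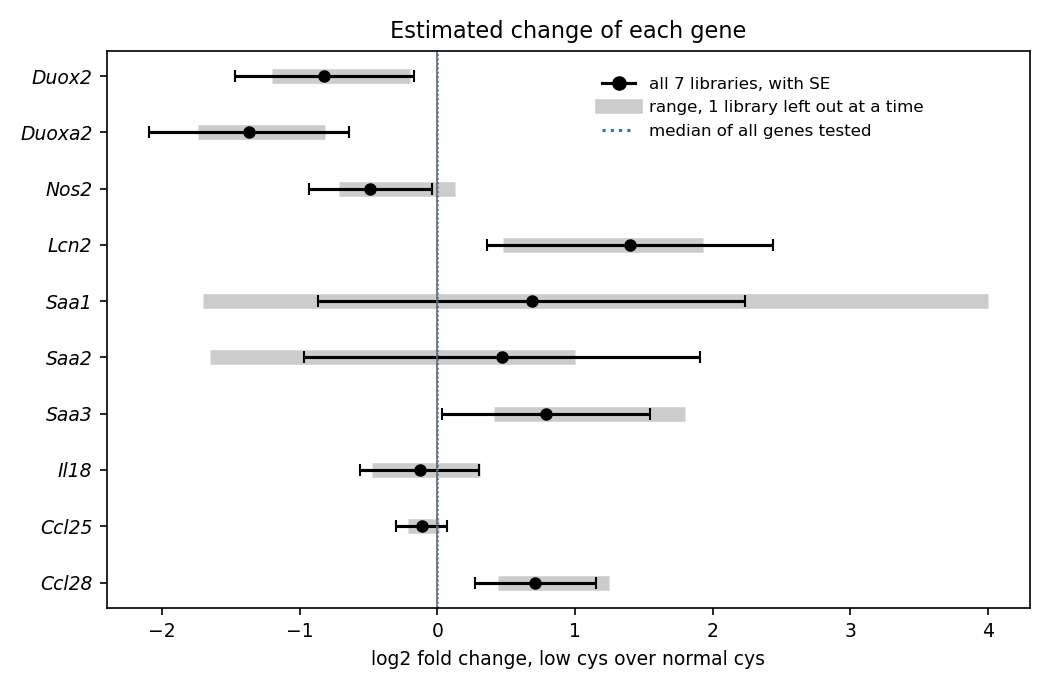
Log2 fold change of low cys over normal cys for each gene (points, with bars of 1 SE, 7 libraries), the range when 1 library at a time was left out (grey bars) and the median of all genes (dotted line). The grey bar of Saa1 runs from -1.70 to 4.00 and those of Nos2, Saa2, Il18 and Ccl25 also cross 0.

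The plot of fold changes sets these estimates against the weight of single libraries. Duox2, Duoxa2, Lcn2, Saa3 and Ccl28 kept their direction in each fit with 1 library left out, and the other 5 genes did not. Lcn2 and Saa2 have no estimate without X17SI4, since too few of the remaining libraries then reached the minimum of the count filter. The tool changed the size of the estimates but not their direction. On the scale of log values, limma-voom gave -0.47 for Duox2, -0.80 for Duoxa2, -0.28 for Nos2, 1.78 for Saa1, 1.35 for Saa2, 1.39 for Saa3 and -0.08 for Il18, each more than 1.5 times above or below the edgeR estimate, with adjusted p-values of 0.719 or more for all 10 genes. Spread within diets was the second measure compared with all genes. It was taken as the biological coefficient of variation (BCV), edgeR's estimate of the relative SD between mice on the same diet beyond counting noise, which was 25.5% in common over all genes. Saa2 (127%) was above 99.98% of all genes and Saa1 (125%) above 99.97%, and Lcn2 followed with 90.5%. Saa3 had 64.8%, Duoxa2 61.5% and Duox2 56.8%. Ccl28 (40.8%), Nos2 (40.2%) and Il18 (39.7%) were above 87.4 to 88.7% of all genes. Ccl25, with 19.4%, was below the common value and above 38.4% of genes. These shares are over genes of every level and were not matched for counts, which were few for Lcn2, Saa2 and Saa3.

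**Figure D4:**
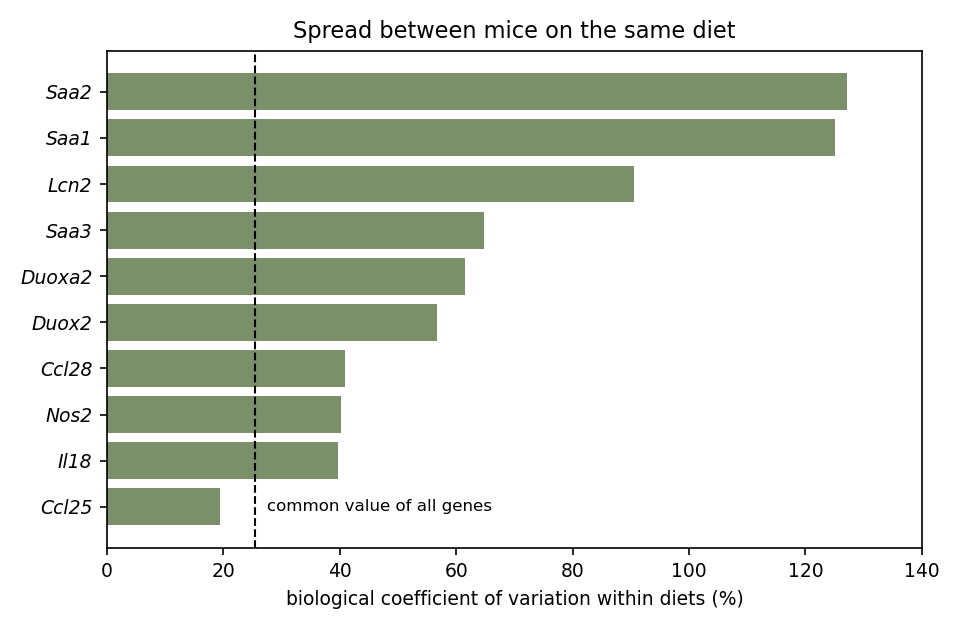
Biological coefficient of variation between mice on the same diet, in percent, for each gene (bars), with the common value of all genes as a dashed line at 25.5%. Of the 10 bars 9 pass the line, and that of Ccl25 stays below it at 19.4%.

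Beyond the pair of Duox2 and Duoxa2, correlations over the 7 libraries were examined for every pair of the 8 genes whose libraries did not fall into separate clusters. Saa1 and Nos2 did, since the largest gap between neighbouring libraries took 0.538 and 0.678 of their range on the log2 scale, and they were left out. Saa3 and Ccl28 rose together (Pearson r = 0.972, exact permutation p = 0.000794, adjusted 0.0167; Spearman's rho = 0.929, p = 0.00675, adjusted 0.063). Without SI9 and X17SI4 r was 0.974. Lcn2 and Saa2 gave r = 0.920 (exact permutation p = 0.00258, adjusted 0.0241), rho = 0.929 (p = 0.00675, adjusted 0.063) and, without X23SI4 and X10SI4, r = 0.877. Lcn2, Saa2 and Saa3 had few counts, so these values carry counting noise as well as the spread between mice.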

How the data were processed

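Polyadenylated RNA of 7 ileal scrapings (4 normal cys, 3 low cys) was sequenced as stranded libraries in paired reads of 50 bases. Per the paper's methods, the authors trimmed reads with TrimGalore, removed ribosomal reads with SortMeRNA, aligned to GRCm38 with STAR and counted exons with featureCounts. The deposited values are raw counts per gene. Totals were 14888760 to 22412703 per library, and low genes therefore carry the most counting error.

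Groups came from the diet label. Genes were kept by edgeR's filterByExpr (minimum count 10, minimum total 15), which left 14869. After TMM scaling, edgeR (version 4.0.16, R 4.3.3) compared the diets by its quasi-likelihood test with robust dispersions, no covariate and Benjamini-Hochberg adjustment over all genes. The scripts were tested on simulated data. Log2 CPM used a prior count of 2. Single genes were compared a second time by exact permutation of the diet labels (two-sided, 35 arrangements), and pairs of genes by exact permutation of the 7 libraries. The alternatives were DESeq2 (1.42.0), limma-voom (limma 3.58.1), DESeq2's size factors, library totals, other filters, a non-robust fit and leaving out each library. The genes, the lists and the tests were chosen with earlier results of these data known. By rule, the genes named outside the 10 were those of the fixed lists with an unadjusted p under 0.05 (at most 4 per list). Fixed partner genes and the 5 genes most correlated with Duox2, among those of at least 1 mean CPM, were named as well. Reg3b and Reg3g were chosen after their values were seen. Further list genes, such as Fabp6, Slc10a2, Alb, Serpina1a, Il22, Vil1 and Krt19, were also named outside these rules, with their values known. The same holds for Csf3r, Ltf and the neutrophil markers without counts. Of 247 list entries 246 were found in the table. Promoters and sequence sharing came from RefSeq (GRCm38.p6) and GENCODE M21 transcripts, and 36345 of the 38293 gene identifiers were found in the latter.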

Additional observations from a re-analysis of the deposited data

Results flagged for a closer look

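In the normal cys group, 23 values were examined for a library far from the other 3 (the 10 genes and 13 summed marker lists, in CPM), by the gap to the nearest library as a share of the whole range. If the values were independent and normally distributed, chance would carry about 1.15 of them past Dixon's 95% critical value for 4 libraries, and 5 passed it. CPM of these genes are skewed, and 4 of the 5 came from the same library, so 1.15 is no measure of chance here. The measure was not taken on log2 CPM. X17SI4 was far above the others for Nos2 (0.833), Saa1 (0.962), Saa2 (0.968) and Il18 (0.968). For Nos2 the value only just passed. The same library had the highest Duox2, Duoxa2, Lcn2, Saa3 and Ccl28 of its group, which did not pass. X1SI4 was far above the others for the summed hepatocyte markers (0.898), of which 20.7 of 22.5 CPM were Serpina1a, while Alb had 0.0956 CPM there. The low cys group, with 3 libraries, was too small for this measure, so X23SI4, which had the highest Saa1 and Lcn2 of all libraries, was not examined by it.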

How the results depend on the processing

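No paired analysis was possible because the labels give the mice no replicate numbers shared between the diets. In DESeq2, 16 genes had an adjusted p under 0.05, none of them among the 10, and limma-voom gave 0. With 1 library left out at a time, the genes with an adjusted p under 0.05 numbered 0 to 1, those with an unadjusted p under 0.05 numbered 258 (without X23SI4) to 1763 (without X17SI4), and 0 to 3 of the 10 genes had an unadjusted p under 0.05: Saa1, Saa3 and Ccl28 without X17SI4, and Duox2 and Duoxa2 without X1SI4. The log2 fold changes then ran from -0.71 to 0.13 for Nos2 (positive without X17SI4), -1.70 to 4.00 for Saa1 and -1.65 to 1.00 for Saa2 (both negative without X23SI4), -0.47 to 0.31 for Il18 (positive without X17SI4 and, at 0.22, without X26SI4) and -0.21 to 0.0107 for Ccl25 (positive without X23SI4). Scaling to library totals moved the median of all genes to 0.15 and turned Il18 to 0.0336 and Ccl25 to 0.0244. The cause of these changes was not tested. Of the 10 genes' log2 fold changes, 57 with a library left out and 66 under other tools, scalings and filters kept their direction and their side of the threshold, and the 5 named above came past the unadjusted threshold without X17SI4 or X1SI4. Mean CPM scaled to library totals moved by less than 1 SD for all 10 genes. Saa2 and Lcn2 did not pass the count filter without X17SI4, nor did Saa2, Saa3 and Lcn2 with at least 10 counts required in every library. Lcn2, Saa2 and Saa3 had the fewest counts of the 10 genes and so the most counting error, beside a wide spread between mice.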

Other observations

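Markers of other cell types set the setting in which the 10 genes were measured. Over all genes tested, 5.49% had an unadjusted p under 0.05 in edgeR, and in 6.83% the diet groups did not overlap. In edgeR 0 of the markers had an adjusted p under 0.05, and the following had an unadjusted p under 0.05. Of the 6 stroma markers 5 were tested and 2 were higher on low cys: the collagen Col3a1 (1.68 ± 0.943 CPM, SD, n = 4, on normal cys and 5.04 ± 1.26 CPM, SD, n = 3, on low cys; log2 fold change 1.58, exact permutation p = 0.0571) and the proteoglycan Dcn (1.62 ± 0.450 and 4.77 ± 1.82 CPM; log2 fold change 1.55, exact permutation p = 0.0286). In both, every low cys library was above every normal cys library. Of the 5 smooth muscle markers 2 were higher, Des (log2 fold change 1.89) and Actg2 (2.11), with overlapping groups, and X26SI4 had the highest sum of this list at 32.8 CPM. The B and plasma cell list had 1 higher gene of 7, Jchain.

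Krt20, a keratin of differentiated villus cells, was the 1 gene of the 7 epithelium markers lower at unadjusted p under 0.05. It had 2825 ± 341 CPM (SD, n = 4) on normal cys and 2130 ± 317 CPM (SD, n = 3) on low cys (log2 fold change -0.41, exact permutation p = 0.0286). In Krt20 and Vil1 every low cys library was below every normal cys library. Vil1 had a log2 fold change of -0.37 (edgeR unadjusted p = 0.0746, exact permutation p = 0.0286). Krt19 was the only gene of this list with a higher estimate (log2 fold change 0.20). Apoa1, the apolipoprotein that enterocytes secrete, was the 1 lower gene of the 4 ileal enterocyte markers (9406 ± 2734 and 5438 ± 1528 CPM, log2 fold change -0.79, exact permutation p = 0.114). Apart from Krt19 (0.839), all of these genes had an adjusted p of 0.794 in edgeR. The lists for goblet cells, Paneth cells, T cells, macrophages and dendritic cells, lymphoid follicles, neutrophils, hepatocytes and adipocytes had 0 higher and 0 lower genes at unadjusted p under 0.05. Among these lists the median log2 fold change ran from -0.28 for goblet cells to 0.78 for the 5 Paneth cell markers. The summed Paneth cell markers overlapped between the diets, at 684 to 4544 CPM on normal cys and 2750 to 4972 CPM on low cys.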
